A study of Mus musculus with 6 samples.

Results

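Csf2rb and Csf2rb2 are neighbouring mouse genes that encode receptor subunits for interleukin-3 and related cytokines, and the transcription start sites between them and within them were examined here by cap analysis of gene expression (CAGE). All peaks of chromosome 15 that start at or after position 78110000 and end at or before 78185000 were taken, which gave 48 of the 158966 peaks listed for every library. The 17 peaks on the minus strand were assigned to Csf2rb2 and the 31 on the plus strand to Csf2rb. Coordinates are as deposited, in the mouse build mm9 that the submitters' processing notes name, and the sources used here do not say from which base they are counted. The locus was chosen because its start sites were higher in 1 group of these same libraries, so the differences between the groups are given as a description. Calls of the fit across all promoters are printed for these sites only beside the background, and nothing is read from them.

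The cells were Ba/F3, a mouse pro-B cell line that grows on interleukin-3 unless an active kinase replaces that signal. The study compared promoters between 2 groups of 3 libraries, Ba/F3 cells with FLT3-ITD, an internal tandem duplication of the FLT3 receptor tyrosine kinase, and Ba/F3 cells with FLT3-ITD and D835Y, a substitution in the activation loop of the same kinase. The second group is called the double mutant here. Both were grown in RPMI-1640 with fetal bovine serum and antibiotics, and the culture protocol in the labels lists no cytokine. The titles give D835Y for all 3 double-mutant libraries, whereas a second label raises the number of the residue by 1 from library to library, and the titles were followed. The labels do not say whether each line is a clone or a pool, what drives FLT3, or whether replicates were separate cultures, so the spread between them may be technical. The labelled cell type was not checked against marker genes, because no gene names come with the deposited peaks.

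The receptors for interleukin-3, interleukin-5 and GM-CSF each join a cytokine-specific alpha subunit to a shared signalling beta subunit, which is encoded by Csf2rb. The mouse carries a close copy, Csf2rb2, whose product pairs with the interleukin-3 receptor alpha chain. Neither beta subunit has a kinase domain of its own. They signal through the bound kinase JAK2, which activates STAT5, a transcription factor that FLT3-ITD also activates. In the RefSeq gene table for build GRCm38, Csf2rb2 and Csf2rb are adjacent protein-coding genes on chromosome 15, between Ncf4 on one side and Tex33 on the other. The genes are near-identical copies, and the sources used here do not give how tags that match both were handled. Tags could thus be split between them in parts of high identity. Which start sites, main starts included, lie in such parts was not tested.

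The RefSeq promoter of Csf2rb2 is shown as the annotated promoter of the gene whose main start and next upstream site are described here. The 250 bases before the annotated start are chr15:78305722-78305971 on the minus strand of GRCm38.p6, a build that cannot be laid over the deposited mm9 positions here, so where the CAGE peaks fall relative to it is not known. Capitals mark matches to TTCNNNGAA, the consensus bound by STAT proteins, and to GAGGAAG, a sequence bound by the myeloid and B-cell factor PU.1, searched on both strands.
Csf2rb2: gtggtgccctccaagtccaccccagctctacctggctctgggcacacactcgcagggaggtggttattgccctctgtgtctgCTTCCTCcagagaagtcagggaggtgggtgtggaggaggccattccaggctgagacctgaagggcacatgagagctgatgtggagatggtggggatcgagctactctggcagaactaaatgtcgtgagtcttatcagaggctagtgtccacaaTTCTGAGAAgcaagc
The STAT match, TTCTGAGAA, lies at bases -15 to -7 from the annotated start. The PU.1 match lies on the opposite strand at -168 to -162, and another lies past the start at bases 29 to 35. In all, 8.3% of 32851 RefSeq promoters of the same 300 bases hold TTCNNNGAA and 13.6% hold GAGGAAG. No match in the 300 bases was found for AGATAA, a sequence bound by GATA factors, which 11.2% of promoters hold. The TATA box TATAAA, which 13.6% hold, had no match either. Other sequences that GATA factors may bind, such as TGATAA, were not searched across promoters. The printed bases do hold ttatca, which reads TGATAA on the opposite strand. Matches to different motifs did not overlap. These matches describe letters and not binding.

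The libraries held between 5884258 and 13977941 tags, so that 1 tag was worth between 0.0715 and 0.170 CPM, the deposited unit, which scales every library to the same total. Where a library had 0 tags at a site, its level may be as high as the worth of 3 tags, 0.215 to 0.510 CPM depending on the library. Intervals and such limits cover counting error only. Double-mutant replicate 3 stood apart from the other double-mutant libraries at the main start of Csf2rb, and values that rest on it are given with and without it. Across the genome it was replicate 2 that stood apart in this group. Its tags differed from those of replicates 1 and 3 by 18.3 and 19.4 times the sampling variance. Between replicates 1 and 3 the value was 5.7. In the FLT3-ITD group replicate 3 stood apart, at 12.1 times from replicate 1 and 8.85 times from replicate 2. Between FLT3-ITD replicates 1 and 2 the value was 4.05.

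The main start of Csf2rb2, on the minus strand at 78136068 to 78136100, had 6.14, 6.12 and 7.90 CPM in replicates 1 to 3 of FLT3-ITD alone, against 66.5, 54.2 and 60.3 CPM in replicates 1 to 3 of the double mutant. Every double-mutant library was far above every FLT3-ITD library, and the double-mutant libraries lay close together. The means were 6.72 ± 1.02 and 60.3 ± 6.11 CPM (SD, n = 3 each), a ratio of 8.98. Behind these levels stand 189 tags for FLT3-ITD alone and 2160 tags for the double mutant, summed over replicates. As the RNA came from bulk cultures, more cells that use a start site and more RNA from it per cell cannot be told apart.

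The main start of Csf2rb, on the plus strand at 78156474 to 78156489, was the most active of the locus in every library. It had 113, 122 and 135 CPM with FLT3-ITD alone, against 1407, 1158 and 308 CPM in double-mutant replicates 1 to 3. The groups did not overlap, but double-mutant replicate 3 reached only 0.24 of the mean of the other double-mutant libraries. The group means were 123 ± 11.1 and 958 ± 576 CPM (SD, n = 3 each), a ratio of 7.78, and without double-mutant replicate 3 the double-mutant mean was 1283 CPM and the ratio 10.4. Ranked among all peaks of its library, this start stood at 1220, 1079 and 1017 in the FLT3-ITD libraries and at 128, 139 and 424 in the double-mutant libraries. The Csf2rb2 main start stood at 9135, 9162 and 8412 and at 2042, 2701 and 2218.

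**Figure D1:**
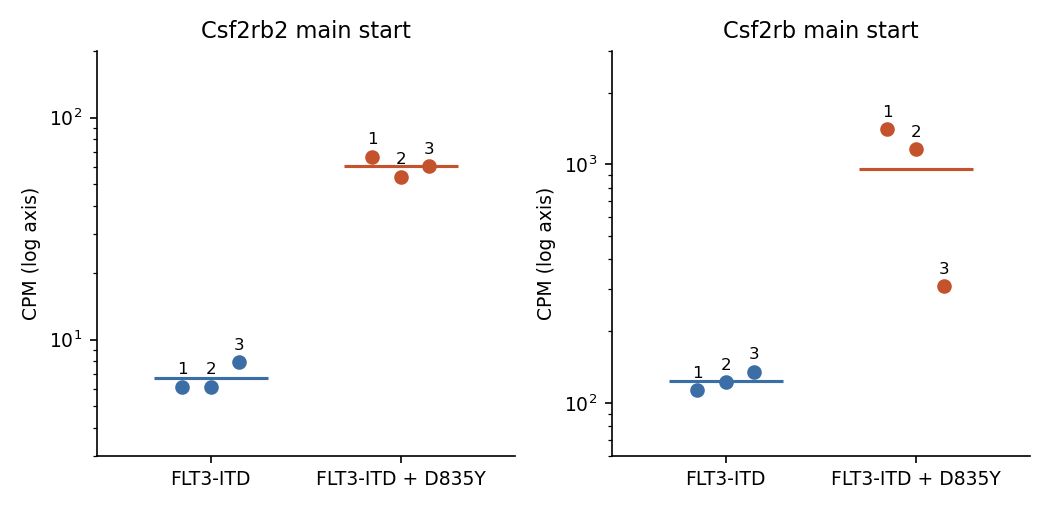
Level in CPM (log axis) of the main start of Csf2rb2 (left) and of Csf2rb (right) in each library, numbered by replicate, with the group mean as a line and an axis range of its own for each panel. Both starts are higher in all 3 double-mutant libraries, and at the Csf2rb start replicate 3 of the double mutant lies at 308 CPM against 1407 and 1158 CPM.

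The low value of double-mutant replicate 3 was seen at the Csf2rb main start and not at the start sites around it. The 4 plus-strand sites within 500 bp of the main start, all of them upstream, summed to 14.4, 12.3 and 12.8 CPM in double-mutant replicates 1 to 3. All Csf2rb sites other than the main start summed to 119, 76.3 and 92.1 CPM, and the Csf2rb2 main start in replicate 3 equalled 1.0 times the mean of replicates 1 and 2. Across the 10250 tested promoters whose mean reached 5 CPM, the median of the same ratio was 0.932, and 8 promoters, the Csf2rb main start among them, or 0.078%, were at or below 0.24. The ratio of the highest to the lowest double-mutant library was 4.57 at the Csf2rb main start, a value that 0.79% of these promoters reached, 1.23 at the Csf2rb2 main start, and 1.28 at the median promoter.

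Start sites just upstream of the main starts were at 1.05 CPM or less in every library of FLT3-ITD alone. For Csf2rb2 this was the minus-strand site at 78136147 to 78136160, with 0.390, 0.510 and 1.05 CPM against 15.9, 9.30 and 11.0 CPM in the double mutant. Its ratio of means, 18.6 (0.651 ± 0.353 and 12.1 ± 3.45 CPM), was above the 8.98 of the main start 60 bp away, though it rests on 19 tags for FLT3-ITD alone. For Csf2rb, the site at 78156153 to 78156180 had 0.195, 0 and 0.702 CPM against 5.12, 4.44 and 4.55 CPM. The site at 78156271 to 78156292 had 0.585, 0.170 and 0.0877 CPM against 3.61, 3.72 and 3.26 CPM, and the site at 78156435 to 78156455 had 0.293, 0.340 and 0.263 CPM against 4.78, 3.0 and 3.95 CPM. The fourth site, at 78156246 to 78156267, had 1 tag with FLT3-ITD alone and 36 tags in the double mutant. At all of these sites the groups did not overlap, with the double mutant higher, in a locus chosen on this contrast. The same order was seen at 13.1% of all peaks with a tag and at 24.2% of tested promoters. Double-mutant replicate 3 was the lowest of its group at 1 of the 4 Csf2rb sites.

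Start sites further downstream, within the transcribed direction of each gene, were lower than the main starts, and the more active of them were higher in the double mutant. No annotation of the mm9 build was used, so whether they lie in exons or introns is not stated. In Csf2rb2, the site at 78128609 to 78128634, 7466 bp downstream of the main start, had 3.02, 4.08 and 3.51 CPM against 24.5, 20.5 and 13 CPM in the double mutant. In Csf2rb, a pair of adjacent sites lay 9099 and 9186 bp downstream. The first, at 78165573 to 78165593, had 3.22, 2.72 and 3.25 CPM against 21.8, 17.0 and 19.5 CPM, and the second, at 78165660 to 78165713, had 4.10, 4.93 and 5.53 CPM against 23.4, 19.96 and 21.1 CPM. Their ratios of means, 5.47, 6.34 and 4.43, were lower than that of the main start of either gene. This was not so at every downstream site. Among those of the next paragraph, the sites at 78114550 and 78127439 had higher ratios than both main starts, 16.65 and 12.8. These rest on 5 and 12 tags for FLT3-ITD alone. The site at 78166859, with 8.19, was above the Csf2rb main start only, and the others there were below both.

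Several downstream sites varied more between libraries of a group. The Csf2rb site at 78166859 to 78166872 had 0.390 and 0.680 CPM in FLT3-ITD replicates 1 and 2 but 5.62 CPM in replicate 3, and 26.2, 12.4 and 16.1 CPM in the double mutant. The Csf2rb2 site at 78127439 to 78127450 had 0.195, 0.510 and 0.614 CPM against 3.78, 11.3 and 1.78 CPM, with double-mutant replicate 2 the highest. The Csf2rb site at 78172057 to 78172077 had 0.878, 1.36 and 2.63 CPM against 12.6, 3.51 and 8.11 CPM. At each of them the lowest double-mutant library was still above the highest FLT3-ITD library. The remaining sites that reached 1 CPM in at least 3 libraries were low. The Csf2rb2 sites at 78122086 to 78122112, 78118376 to 78118398 and 78114550 to 78114581 had double-mutant means of 4.35 ± 2.78, 1.97 ± 0.674 and 3.46 ± 2.35 CPM (SD, n = 3) and FLT3-ITD means of 0.584, 0.323 and 0.207 CPM. The Csf2rb sites at 78167660 to 78167705 and 78179598 to 78179623 had double-mutant means of 1.58 ± 0.513 and 3.39 ± 1.28 CPM and FLT3-ITD means of 0.209 and 0.604 CPM.

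**Figure D2:**
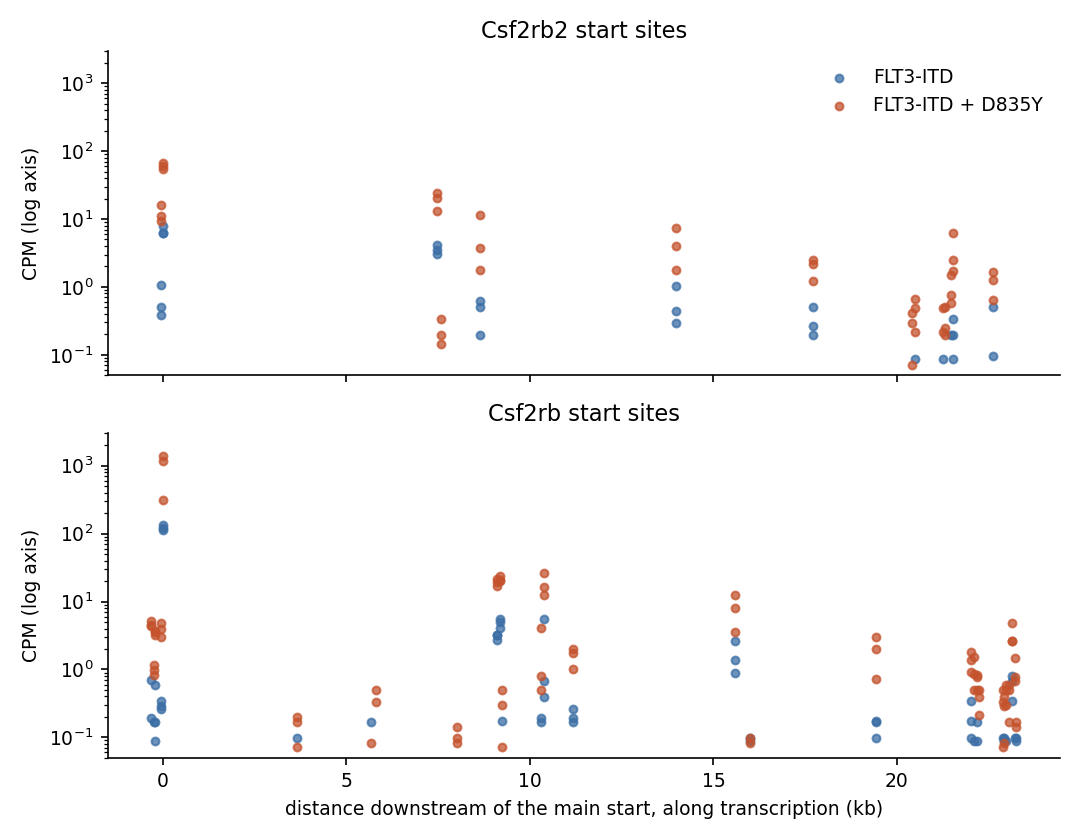
Level in CPM (log axis) of each start site with a tag, except the 2 minus-strand sites inside the stretch of Csf2rb, against its distance downstream of the main start in kb, for Csf2rb2 (top) and Csf2rb (bottom), with 1 point per library and values of 0 left out. The main start at 0 kb is the highest point of each panel, and the more active downstream sites are higher in the double mutant.

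Of the 48 peaks, 45 had a tag in at least 1 library, 16 on the minus and 29 on the plus strand. The double-mutant mean was above the FLT3-ITD mean at 42 of the 45, and the 3 below it had at most 4 tags over all libraries. All 3 double-mutant libraries were above all 3 FLT3-ITD libraries at 34 of the 45, against 13.1% of the 54470 peaks with a tag and 24.2% of the tested promoters, and the order was the reverse at 0 of the 45. At 8 sites no FLT3-ITD library had a tag, and these had at most 15 tags in the pooled double-mutant libraries. A minimum of 1 CPM in at least 3 libraries was met by 17 sites, most of them through the double-mutant libraries alone. In limma fitted across all 19162 promoters that met it, 15 of the 17 were called higher and 0 lower, where 14.1% of promoters were called higher, 10.4% lower and 24.4% in either direction. Since the locus was picked on this contrast, and most of its sites met the minimum through the group where they are high, these calls are not evidence of a difference. The log2 differences ranged from 1.07 to 2.99 on the log2(CPM + 1) scale, on which the median of all tested promoters was 0.05. The Csf2rb2 main start differed by 2.99 (SE 0.14) and the Csf2rb main start by 2.69 (SE 0.67), or by 3.37 without double-mutant replicate 3. The 2 sites that were not called were the Csf2rb main start and the site at 78166859, which differed by 2.89 (SE 0.72), or by 3.59 without FLT3-ITD replicate 3.

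Beyond the main starts and their surroundings, the minus-strand rule also took 2 sites that lie inside the stretch of Csf2rb, downstream of the Csf2rb main start and on the opposite strand. They had 11 tags in all libraries together, 10 of them at the site from 78166814 to 78166836 in double-mutant replicates 1 and 2. At the 2 edges of the window, the outermost sites with a tag were the minus-strand site at 78113476 to 78113489, with 0.202 and 1.19 CPM as group means, and the plus-strand site at 78179730 to 78179741, with 0.0618 and 0.104 CPM.

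The genes differed in how their tags were spread over start sites. The main start held 90.7%, 91.1% and 87.0% of Csf2rb tags with FLT3-ITD alone, against 92.2%, 93.8% and 77.0% in the double mutant. The lowest of these, in double-mutant replicate 3, is 3114 of 4045 tags, with a 95% Wilson interval of 75.7% to 78.3%. For Csf2rb2 the main start held 56.8%, 45.0% and 56.2% in FLT3-ITD and 52.2%, 52.9% and 58.5% in the double mutant. The groups overlapped for both genes, and the interval of the lowest Csf2rb2 value, 36 of 80 tags in FLT3-ITD replicate 2, ran from 34.6% to 55.9%. The mean share was thus 89.6% ± 2.28 and 87.7% ± 9.29 for Csf2rb, 93.0% in the double mutant without replicate 3, and 52.7% ± 6.65 and 54.5% ± 3.46 for Csf2rb2 (SD, n = 3 each).

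The share of Csf2rb2 tags at the site just upstream of its main start did not overlap between the groups. It was 3.60%, 3.75% and 7.50% in FLT3-ITD and 12.5%, 9.07% and 10.6% in the double mutant. The FLT3-ITD values rest on 4, 3 and 12 tags, with 95% Wilson intervals of 1.41% to 8.90%, 1.28% to 10.45% and 4.34% to 12.7%. The first takes in none of the double-mutant values, the second takes in that of replicate 2, and the last takes in all 3. Sites further downstream held 38.7%, 51.2% and 36.2% of Csf2rb2 tags in FLT3-ITD and 34.8%, 37.9% and 30.9% in the double mutant. In Csf2rb they held 8.4%, 8.4% and 12.3%, and then 6.86%, 5.19% and 19.8%. The shares at the upstream sites of Csf2rb did not overlap either, at 0.863%, 0.509% and 0.679% against 0.940%, 0.997% and 3.19%, with overlapping intervals apart from double-mutant replicate 3, where the main start was low.

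**Figure D3:**
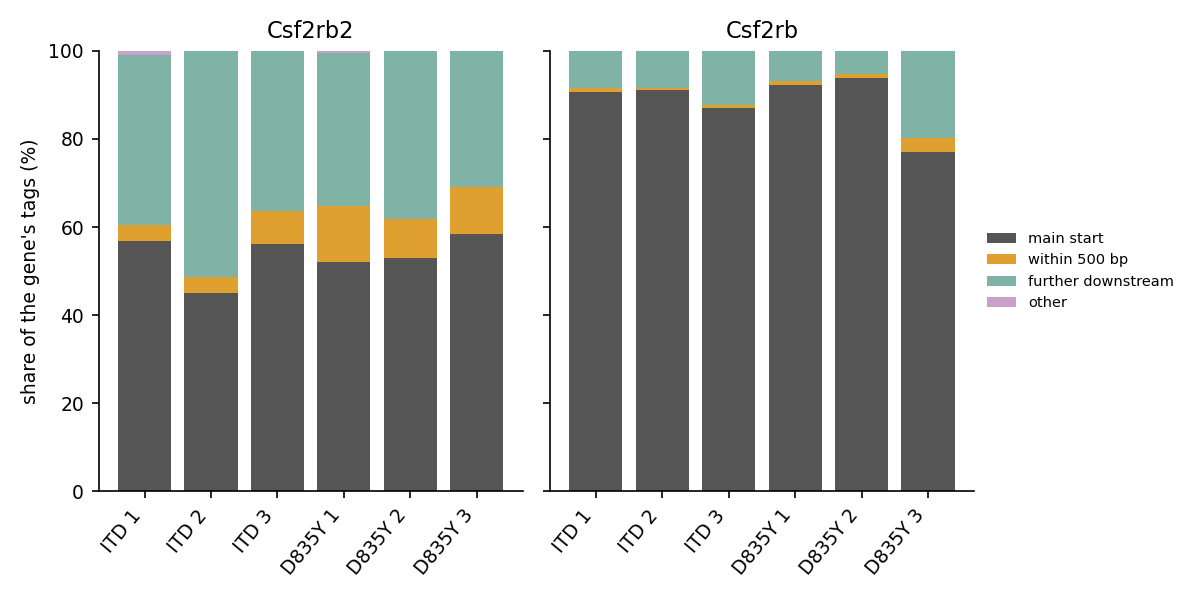
Share of each gene's tags (%) at its main start, within 500 bp of it, further downstream and elsewhere, in each library, for Csf2rb2 (left) and Csf2rb (right). The main start takes 45.0% to 58.5% of Csf2rb2 tags and 77.0% to 93.8% of Csf2rb tags.

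Summed over all its sites, Csf2rb2 reached 12.8 ± 1.74 CPM with FLT3-ITD alone and 111 ± 14.2 CPM with D835Y added (SD, n = 3 each), a ratio of 8.66. Csf2rb reached 138 ± 15.8 and 1054 ± 585 CPM, a ratio of 7.66, or 10.0 without double-mutant replicate 3. CAGE counts 1 tag per captured 5′ end, so levels of the genes need no correction for transcript length. Csf2rb exceeded Csf2rb2 by 11.5, 9.83 and 11.0 times with FLT3-ITD alone and by 12, 12 and 3.88 times in the double mutant. Double-mutant replicate 3 was thus apart from the other 5 libraries. The ratio was higher between the main starts, at 17.1 to 19.9 times in FLT3-ITD and 21.2, 21.4 and 5.11 times in the double mutant, while the downstream sites of Csf2rb exceeded those of Csf2rb2 by only 1.61 to 3.76 times over all 6 libraries.

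Of the 12 downstream sites of Csf2rb2, the 5 that reached the minimum of 1 CPM in at least 3 libraries were compared by position with those of Csf2rb. Measured along transcription from the Csf2rb2 site at 78128609 and the Csf2rb site at 78165660, the Csf2rb2 site 1177 bp further had a Csf2rb counterpart at 1179 bp. Those at 6522, 10234 and 14056 bp had counterparts at 6380, 10229 and 13924 bp. The reference sites are the most active downstream site of each gene, and the counterpart was the Csf2rb site with the highest double-mutant mean within 300 bp of the same distance, where 1 to 5 Csf2rb sites lay. This rule was made after the positions were seen, and the reference pair matches by construction. A Csf2rb site needed only a tag in any library to be taken. The counterpart at 10229 bp, which starts at 78175906, did not reach the minimum. The Csf2rb sites at 78165573 and 78167660, which did reach it, were not taken as a counterpart of any of the 5. At the reference pair, Csf2rb was 1.36, 1.21 and 1.57 times Csf2rb2 in FLT3-ITD and 0.956, 0.972 and 1.63 times in the double mutant. At 1177 bp the ratio of double-mutant means was 3.25 and at 6522 bp it was 1.86, while at 10234 bp it was 0.967 and at 14056 bp 0.983. Single libraries differed more. In double-mutant replicates 1 to 3 the ratio was 6.93, 1.10 and 9.06 at 1177 bp and 1.72, 1.96 and 2.05 at 6522 bp. It was 1.20, 0.588 and 0.909 at 10234 bp and 1.93, 1.54 and 0.436 at 14056 bp. The ratios of FLT3-ITD means of these 4 weaker pairs, in the same order, were 5.07, 2.78, 0.458 and 2.91. They rest on 4 to 72 pooled tags per site. How far tags shared by the copies enter these levels was not tested.

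**Figure D4:**
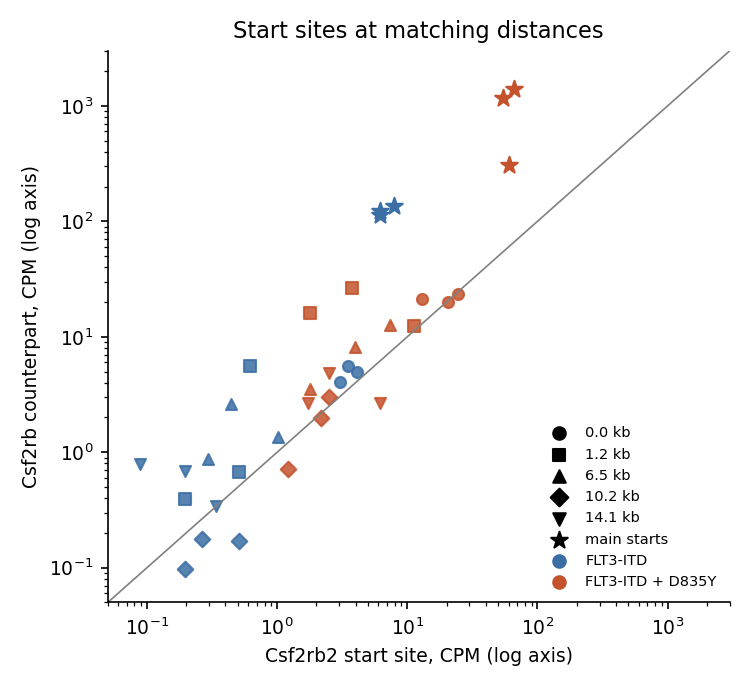
Level of Csf2rb2 sites against that of their Csf2rb counterparts in CPM (both axes log), with 1 point per library, symbols for the distance from the reference pair in kb and a line where the genes are equal. The main starts (stars) lie above the line in every library, and most downstream points lie nearer to it. Some downstream points lie further from it than the star of double-mutant replicate 3 (5.11 times). In that library the pair at 1177 bp (9.06 times) is 1 of these.

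The difference between the groups was smaller outside the window. Within 200 kb on either side, 9 promoters were tested, 6 before and 3 after. The nearest tested promoters lay 34519 bp before the window and 51840 bp after it. The log2 differences of the 9 ran from 0.06 to 0.57, all of them below the lowest value in the window, 1.07. The window was chosen on this contrast, and most of its tested sites met the minimum through the double mutant alone. A gap to promoters not so chosen was thus fixed in part beforehand, and nothing is read from it. On the side of Csf2rb2, the plus-strand promoter at 78075378 to 78075436 had 7.80, 7.82 and 6.84 CPM in FLT3-ITD and 11.5, 11.9 and 10.9 CPM in the double mutant. It was higher in all 3 double-mutant libraries by 0.55 (SE 0.14, limma adjusted p = 0.013; 0.061 without FLT3-ITD replicate 3, 0.068 with DESeq2). The minus-strand promoter at 78004456 to 78004519 was higher in all 3 by 0.55 (SE 0.15, limma adjusted p = 0.019; 0.090 without FLT3-ITD replicate 2). On the side of Csf2rb, the minus-strand promoter at 78236840 to 78236846 was higher in all 3 by 0.57 (SE 0.17, limma adjusted p = 0.030), and that call held in only 2 of 6 fits that left out a library. The call was also lost with DESeq2 and with a replicate term in the fit. The nearby plus-strand promoter at 78237125 to 78237162 had means of 28.1 and 29.2 CPM with SDs of 2.82 and 2.91 (n = 3 each; limma adjusted p = 0.79). The remaining called promoter, at 78004356 to 78004377 (limma adjusted p = 0.047), lost its call whenever any library was left out. In all, 4 of the 9 were called higher, where 14.1% of all tested promoters were. Every double-mutant library was above every FLT3-ITD library at the called promoters and also at those starting at 78075283 and 78075450, which were not called. The groups overlapped at the promoters starting at 78075211, 78237125 and 78237207. Such a separation was seen at 24.2% of all tested promoters.

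**Figure D5:**
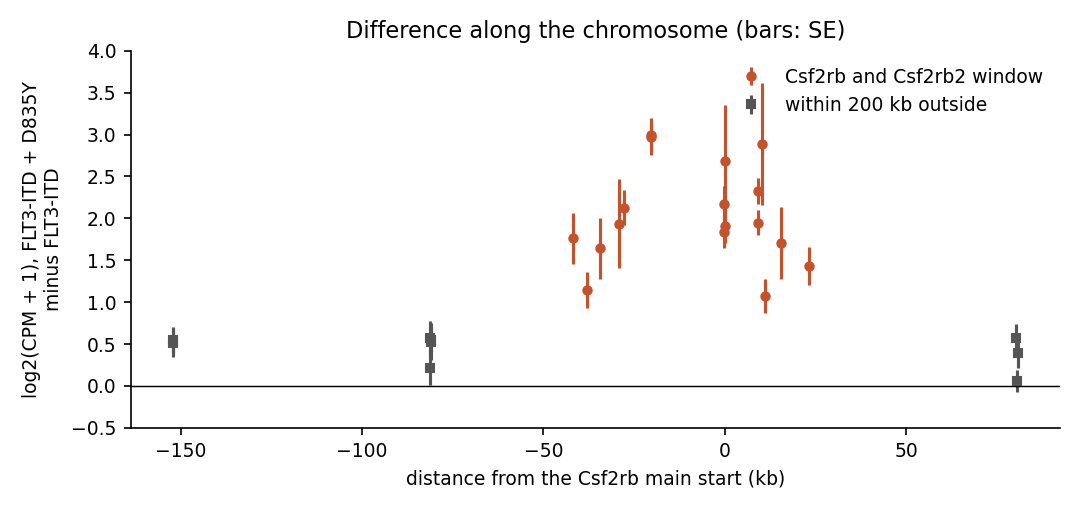
Difference between the groups on the log2(CPM + 1) scale, double mutant minus FLT3-ITD, with SE bars, for the tested start sites of the window and for tested promoters within 200 kb outside it, against the distance from the Csf2rb main start in kb. Sites in the window, which was chosen on this contrast, lie between 1.07 and 2.99 and promoters outside it between 0.06 and 0.57.

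Other promoters followed the main starts across the 6 libraries. Among 10243 promoters outside the window whose mean reached 5 CPM, one on the minus strand of chromosome 4, 58999940 to 58999958, was most like the Csf2rb main start (Pearson's r of log2(CPM + 1) 0.993). It had 1.07, 0.680 and 1.49 CPM in FLT3-ITD and 15.2, 12.7 and 3.07 CPM in the double mutant, so that double-mutant replicate 3 was low there too. The next 4, on chromosomes 19, 8, X and 1, had r of 0.984 to 0.989 and smaller differences, such as 25.3 ± 0.943 and 32.1 ± 3.90 CPM (SD, n = 3 each) for chromosome 19, 4163287 to 4163338 on the minus strand. Most like the Csf2rb2 main start was a promoter on the plus strand of chromosome 19, 31038353 to 31038362 (r = 0.9995), with 0, 0 and 0.175 CPM against 13.7, 9.94 and 11.3 CPM. The next 4, on chromosomes 8, 11 and 1, had r of 0.999. One of them, on the plus strand of chromosome 11 at 4216159 to 4216171, had 0, 0 and 0.175 CPM against 49.7, 41.4 and 45.6 CPM. These values of r are over 6 libraries in 2 groups and describe likeness of pattern only, since any promoter that separates the groups evenly reaches a high r.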

How the data were processed

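CAGE libraries were made from total RNA by the no-amplification protocol, per the labels' protocols. The deposited values are CPM, tags scaled by the authors to a common total over the listed peaks. Per the submitters' processing notes the tools include TopHat2 2.0.14 and edgeR 3.24.3 and the builds hg19 and mm9, with no role given, and the peak calling is not stated. Dividing by the lowest value above 0 gave a whole number for 100% of values (tolerance 0.01), taken as tags. No library repeated another, since tags differed by at least 4.05 times the sampling variance.

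Promoters with at least 1 CPM in at least 3 libraries were tested with limma 3.58.1 (trend, robust; R 4.3.3) on log2(CPM + 1), with Benjamini-Hochberg adjustment over 19162 promoters and a threshold of 0.05. edgeR 4.0.16 and DESeq2 1.42.0 on recovered tags were alternatives, beside pseudocounts of 0.5 and 0.25, no filter, TMM scaling, a replicate term and leaving out each library. The fit was tested on simulated data. Start sites are named if they passed the filter, and other sites, edges and counterparts were named after their values were seen. Members, lists and motifs were chosen with earlier results of these data known. Lists of pathway and marker genes were not used, since no annotation of mm9 was at hand. Promoter sequences are RefSeq's (GRCm38.p6), where Csf2rb2 had 1 entry and Csf2rb 0.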

Additional observations from a re-analysis of the deposited data

How the results depend on the processing

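The choice of the locus fixes the direction of its sites, so their refits are no sign of stability. In 221 refits of the 17 sites that were fitted, 8 calls were lost and 5 gained. The Csf2rb main start passed with edgeR, with DESeq2 and in limma without double-mutant replicate 3, and the site at 78166859 with DESeq2 and in limma without FLT3-ITD replicate 3. The sites at 78127439 and 78172057 lost the call in 4 refits each. Of the locus, 29 sites were called with no filter, where 45 were fitted. Across the genome that setting called 5211 of 54470 promoters, 2994 of them higher. With a library left out, 13 to 15 of the 17 sites were called. Among flanking promoters, 1 was called with DESeq2, 2 with the replicate block and 1 to 3 with a library left out, against 4. Across the genome DESeq2 called 1702 promoters higher, and left-out libraries gave 3076 (without FLT3-ITD replicate 2) to 5209 calls, 1807 to 2745 of them higher and 1215 (without FLT3-ITD replicate 3; 1269 without FLT3-ITD replicate 2) to 2464 lower; the cause was not tested. The replicate block gave 4109 calls in all and 15 at the locus. Replicate numbers were not taken to pair libraries, as the deviations of libraries that share a number had r of -0.005, 0.019 and 0.193, and some libraries were closer to another number. The log2 ratio of summed CPM was 2.57 to 3.33 for Csf2rb and 3.0 to 3.18 for Csf2rb2 with a library left out. Other settings moved sums, shares and ratios by less than the SD between replicates. Depth limits the low sites, where 1 tag is worth up to 0.170 CPM.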
